A study of Homo sapiens with 8 samples.

Results

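The genes described here are the OAS family and the cellular sensors of double-stranded RNA, 9 genes among the 58206 in the count table. They were taken by name: OAS1, OAS2, OAS3 and OASL, the receptors IFIH1 (MDA5), RIGI (RIG-I, earlier DDX58) and DHX58 (LGP2), the adaptor MAVS and the kinase EIF2AK2 (PKR). Each name matched 1 Ensembl identifier in the table. RNA was sequenced from Alexander1 cells, an established human epithelial line from a hepatocellular carcinoma, in 4 libraries labelled wt (Axin1 -) and 4 labelled Axin1 +. The wt (Axin1 -) group is the line as obtained, called parental here. Per the labels its Axin1 has lost the part to which GSK3 binds, and the Wnt pathway is permanently switched on. The Axin1 + group is a derivative of the same line given Axin1 from a plasmid through a VSVG retrovirus, with hygromycin B selection of clones, a treatment that the labels give for every sample. How many clones it represents was not given in the sources used here, nor whether the 4 libraries of a group came from separate cultures, so the p-values measure the spread between these libraries, which may be technical.

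Double-stranded RNA is a product of viral replication, and cells carry several proteins that bind it in the cytoplasm. RIG-I and MDA5 pass the signal through MAVS on mitochondria towards the kinase TBK1 and the factor IRF3, which switch on interferon genes, and LGP2, which lacks the signalling domains of its relatives, modulates them. The OAS enzymes make short 2-5A oligonucleotides, second messengers of RNA decay, OASL has the OAS fold without this activity, and PKR phosphorylates the initiation factor eIF2-alpha and slows translation. Most of these genes are themselves induced by interferon through the transcription factor complex ISGF3, and hepatocytes, targets of hepatitis viruses, can make them.

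Library totals ranged from 11232951 to 15263761 counts in the parental group and from 12372436 to 26400782 in the group labelled Axin1 +. Values are given in CPM, a gene's count scaled to a common library size with TMM factors, on which 3 counts correspond to between 0.108 and 0.267 CPM depending on the library. Pairs of libraries of 1 group differed by more than counting noise (chi-square per degree of freedom of 8.59 or more), so none was counted as a duplicate. AXIN1 mRNA, the gene the design set out to change, was 52.4 CPM ± 3.49 in the parental and 45.4 CPM ± 5.13 in the Axin1 + libraries (SD, n = 4 each; log2 fold change -0.21, SE 0.12, edgeR adjusted p = 0.267). It was thus not measurably higher in the libraries labelled Axin1 +, and every direction below rests on the labels. Most liver markers were abundant, the highest being SERPINA1 (alpha-1-antitrypsin) at 16130 CPM ± 1188 and 10360 CPM ± 1109 (SD, n = 4 each). TTR (transthyretin) was low, at 3.63 CPM ± 1.90 and 12.6 CPM ± 6.86 (SD, n = 4 each). ALB (albumin) varied between libraries of 1 group, from 46.7 to 208 CPM in the parental and from 13.8 to 681 CPM in the Axin1 + libraries. It was lowest in replicate 1 of each group. The immune cell markers PTPRC and CD3E held at most 2 counts in any library. LYZ (lysozyme), also on the immune list, was 771 CPM ± 238 and 764 CPM ± 108 (SD, n = 4 each), so that the whole list summed to 422 to 949 CPM in the parental and 673 to 921 CPM in the Axin1 + libraries. Without LYZ it summed to between 0.535 and 1.78 CPM in the parental and between 1.08 and 1.69 CPM in the Axin1 + libraries. The endothelial and fibroblast list summed to between 7.24 and 9.44 CPM and between 38.5 and 60.2 CPM in the same order, and without PECAM1 to between 2.78 and 3.22 CPM and between 1.23 and 4.66 CPM. The sum of the liver list was 24170 to 28320 CPM and 16840 to 20530 CPM, and the part of these differences in the results below was not tested.

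The start of transcription is where interferon-activated factors bind many of these genes, and RefSeq promoter windows (GRCh38.p14, 250 bases before to 50 after the start) were available for 6 of the 9 genes. The windows shown are those of the 2 genes that rose and had one, OAS1 and IFIH1, and of 2 that were not called and held a match to a motif searched, OAS3 and EIF2AK2. They read 5′ to 3′ along the gene, and capitals mark matches, on either strand, to 2 GAAA blocks with 2 bases between them (GAAANNGAAA, the core of the interferon-stimulated response element) or with 1 base between them (GAAANGAAA, a spacing added after the windows had been read).
OAS1 (chr12:112906712-112907011, plus strand): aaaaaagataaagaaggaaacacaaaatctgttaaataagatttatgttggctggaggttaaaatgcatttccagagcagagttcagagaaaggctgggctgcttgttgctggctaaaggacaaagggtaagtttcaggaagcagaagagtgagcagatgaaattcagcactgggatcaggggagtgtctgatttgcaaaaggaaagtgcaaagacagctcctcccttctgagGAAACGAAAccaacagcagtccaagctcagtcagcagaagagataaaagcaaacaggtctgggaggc
IFIH1 (chr2:162318635-162318934, minus strand): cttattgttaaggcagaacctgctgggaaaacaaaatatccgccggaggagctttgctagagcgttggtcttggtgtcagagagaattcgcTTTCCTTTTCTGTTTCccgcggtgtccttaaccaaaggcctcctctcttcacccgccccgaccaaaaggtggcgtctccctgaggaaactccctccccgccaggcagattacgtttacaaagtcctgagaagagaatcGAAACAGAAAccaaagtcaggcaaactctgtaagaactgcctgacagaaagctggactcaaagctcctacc
OAS3 (chr12:112938224-112938523, plus strand): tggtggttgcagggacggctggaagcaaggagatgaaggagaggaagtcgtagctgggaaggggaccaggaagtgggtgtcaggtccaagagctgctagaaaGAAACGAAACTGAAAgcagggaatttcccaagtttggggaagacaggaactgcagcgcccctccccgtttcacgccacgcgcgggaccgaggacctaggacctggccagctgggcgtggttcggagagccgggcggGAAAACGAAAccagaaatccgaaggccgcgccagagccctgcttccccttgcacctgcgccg
EIF2AK2 (chr2:37156931-37157230, minus strand): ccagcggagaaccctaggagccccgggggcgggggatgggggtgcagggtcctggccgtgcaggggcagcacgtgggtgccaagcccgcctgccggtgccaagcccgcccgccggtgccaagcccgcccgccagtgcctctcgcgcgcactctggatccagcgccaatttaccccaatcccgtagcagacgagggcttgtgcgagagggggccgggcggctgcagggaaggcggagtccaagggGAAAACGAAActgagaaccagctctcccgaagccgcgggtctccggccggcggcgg

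The core with 2 bases between its blocks was found in 3 of the 6 windows. OAS3 held it at -143 to -134 and at -12 to -3, counted from the RefSeq start with -1 as the last base before it. IFIH1 held it at -21 to -12 and, on the opposite strand, as an overlapping pair at -159 to -150 and -153 to -144. EIF2AK2 held it across the start, at -6 to 4. Among 27305 RefSeq windows of the same length, 3.65% held at least 1 such match, as did 20 of the 31 windows found for the list of other interferon-stimulated genes. The windows of OAS1, RIGI and MAVS had none. OAS1 held the blocks with 1 base between them at -17 to -9, OAS3 at -148 to -140, overlapping its first core, and RIGI at -203 to -195, in ggtgcggagggaaacgaaactagcccgag (lower case, 10 bases on each side of the match). That spacing was found in 3.22% of all windows. The gamma-activated-site pattern TTCNNNGAA occurred once, in OAS1 at -168 to -160, and in 7.88% of all windows. These are letter matches and not measured binding sites. The gene coordinates printed below are from GENCODE, whose starts lie upstream of the RefSeq starts of these windows. By those coordinates both OAS1 matches, the OAS3 core at -12 to -3 and the EIF2AK2 core lie inside the gene. The IFIH1 core at -21 to -12 crosses its GENCODE start. OAS2, OASL and DHX58 had no entry in the table of windows.

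The comparison asked which of the 9 genes differed between the groups. OAS1, OAS2 and IFIH1 were higher in the libraries labelled Axin1 +, none was called lower by edgeR, and 5 further genes were tested without a call. MAVS and EIF2AK2 had lower values at an unadjusted p under 0.05, which 4786 of the 14289 genes tested reached in either direction, and of the other tools DESeq2 called 1 of them, MAVS, and limma-voom 0. DHX58 stayed under the expression filter and was not tested. A call is an adjusted p below 0.05 in the quasi-likelihood test of edgeR, with the Benjamini-Hochberg method applied across the 14289 genes that passed the filter. By this measure 10.4% of them were higher and 8.77% were lower, 19.2% in all. These were 1485 higher and 1253 lower genes, and scaling by total counts only turned the split to 1724 higher and 868 lower. OAS2 passed the expression filter only through the group in which it was high, so the 3 calls are a description and not a measure of how often such genes differ. The median log2 fold change of the 8 tested genes was 0.40, against 0.003 over all genes tested.

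OAS1 (ENSG00000089127, chromosome 12, 112906777 to 112933222, plus strand) makes 2-5A when it binds short double-stranded RNA and was the most abundant OAS mRNA. It stood at 39.3, 52.8, 48.7 and 42.5 CPM in parental replicates 1 to 4 and at 55.6, 71.6, 68.6 and 62.3 CPM in Axin1 + replicates 1 to 4. The groups did not overlap, with parental replicate 2 and Axin1 + replicate 1 closest to each other. OAS1 rose 1.41-fold, a log2 fold change of 0.49 (SE 0.14, 95% interval 0.19 to 0.79, edgeR adjusted p = 0.0282). Enumerating the 70 ways to label the libraries, a two-sided exact permutation test returned p = 0.0286, the lowest value possible with 4 libraries a group. The call was lost when any 1 of parental replicates 3 and 4 or Axin1 + replicates 2, 3 and 4 was left out, with an adjusted p of at most 0.0851 and a log2 fold change of 0.44 or more. An exon of OAS1 overlaps 92 bases of an antisense transcript that held at most 3 counts per library.

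OAS2 (ENSG00000111335, chromosome 12, 112978395 to 113011723, plus strand), a synthetase with a tandem pair of OAS domains, was near the detection limit in the parental line. It had 2, 9, 2 and 0 counts in parental replicates 1 to 4, or 0.178, 0.609, 0.178 and 0 CPM, and the library with 0 counts allows up to 0.215 CPM. In the Axin1 + libraries it had 43, 12, 20 and 31 counts, or 1.54, 0.991, 0.986 and 1.21 CPM. Every Axin1 + library was above every parental one. OAS2 rose by a log2 fold change of 2.23 (SE 0.60, 95% interval 0.90 to 3.55, edgeR adjusted p = 0.0263). Since the filter kept OAS2 only because the Axin1 + libraries were high, this p is a description. In the fit without an expression filter, where that choice does not arise, the log2 fold change was 2.26 (edgeR adjusted p = 0.00472). Without parental replicate 2, which held 9 of the 13 parental counts, the log2 fold change was 3.34, and without parental replicate 4 it was 1.80. Leaving out parental replicate 3 or Axin1 + replicate 3 or 4 took the adjusted p above the threshold (at most 0.0696), as did the replicate number as a block (0.0538).

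OAS3 (ENSG00000111331, chromosome 12, 112938352 to 112973249, plus strand), the enzyme that senses long double-stranded RNA, lies between OAS1 and OAS2. Its levels were 21.7, 23.6, 24.7 and 29.3 CPM in the parental and 36.5, 22.7, 31.0 and 32.8 CPM in the Axin1 + libraries. Axin1 + replicate 2, at 22.7 CPM, fell among the parental values, and the other Axin1 + libraries lay above all of them. The log2 fold change of 0.31 (SE 0.17, 95% interval -0.06 to 0.68) did not pass the threshold (edgeR adjusted p = 0.220), nor did it in any of 18 alternative analyses.

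OASL (ENSG00000135114, chromosome 12, 121019111 to 121039242, minus strand), the OAS-like protein without synthetase activity, lies outside the cluster on the same chromosome. Its levels were 0.890, 1.35, 2.41 and 2.58 CPM in the parental and 2.19, 2.89, 2.17 and 3.20 CPM in the Axin1 + libraries, from 10 to 36 and from 35 to 82 counts. Parental replicates 1 and 2 were lower than all Axin1 + libraries, and parental replicates 3 and 4 lay within their range. The interval of the log2 fold change, -0.24 to 1.29 around 0.53, contains 0 (edgeR adjusted p = 0.321).

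**Figure D1:**
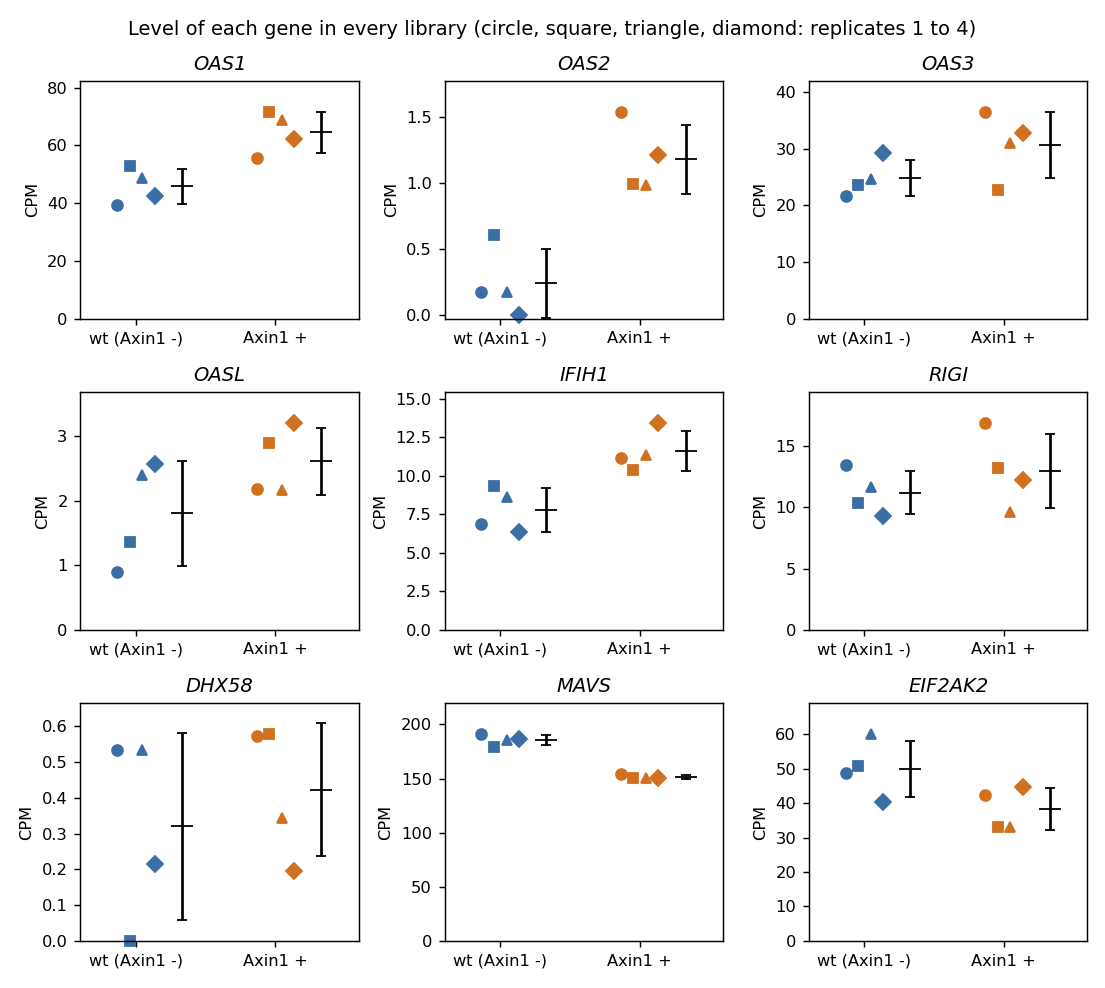
Level in CPM (y axis, linear from 0 or, where the error bar reaches below it, from under 0) of the 9 genes in each of the 4 parental (blue) and 4 Axin1 + (orange) libraries; symbols give the replicate, the black bar the mean and the whiskers 1 SD. OAS1, OAS2 and IFIH1 have all orange points above the blue ones, MAVS has all of them below, and the other 5 genes overlap.

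Of the RIG-I-like receptors, IFIH1 was higher in the Axin1 + libraries with an adjusted p at the threshold, and RIGI was not called. IFIH1 (ENSG00000115267, chromosome 2, 162267079 to 162318703, minus strand), the receptor for long double-stranded RNA, stood at 6.85, 9.34, 8.64 and 6.37 CPM in the parental and at 11.2, 10.4, 11.4 and 13.4 CPM in the Axin1 + libraries. The groups did not overlap. IFIH1 rose 1.49-fold, by 0.57 on the log2 scale (SE 0.18, 95% interval 0.17 to 0.98), and gave an adjusted p of 0.0495 in edgeR and an exact permutation p of 0.0286. That call sat at the threshold and was lost in 13 of 18 alternative analyses, including each of the 8 that left out 1 library (adjusted p 0.0595 to 0.146), while the log2 fold change stayed between 0.44 and 0.67.

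RIGI (ENSG00000107201, chromosome 9, 32455705 to 32526324, minus strand), the receptor for RNA ends with a triphosphate, was 13.4, 10.4, 11.7 and 9.30 CPM in the parental and 16.9, 13.2, 9.61 and 12.2 CPM in the Axin1 + libraries. The groups overlapped, with Axin1 + replicate 3 below 3 of the parental libraries. RIGI had a log2 fold change of 0.22 (SE 0.20, 95% interval -0.23 to 0.66, edgeR adjusted p = 0.485), which was 0.06 without Axin1 + replicate 1, the library with the highest value. DHX58 (ENSG00000108771, chromosome 17, 42101404 to 42112733, minus strand) was barely detected in either group, with 6, 0, 6 and 3 counts in the parental and 16, 7, 7 and 5 in the Axin1 + libraries. These are 0.321 CPM ± 0.262 and 0.423 CPM ± 0.187 (SD, n = 4 each), and a difference was not detectable at this depth (exact permutation p = 0.486).

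The adaptor and the kinase lay on the other side of 0, and neither was called. MAVS (ENSG00000088888, chromosome 20, 3846799 to 3876123, plus strand), on which both receptors converge, was 190.9, 179, 186 and 187 CPM in the parental and 154, 151, 151 and 151 CPM in the Axin1 + libraries. Every Axin1 + library was below every parental one, and MAVS varied least of the 9 genes, with coefficients of variation of 2.65% and 1.19%. Its log2 fold change of -0.29 (SE 0.10, 95% interval -0.51 to -0.07) missed the threshold in the edgeR test (adjusted p = 0.0631) and passed it in DESeq2's Wald test (adjusted p = 0.00239), with an exact permutation p of 0.0286. EIF2AK2 (ENSG00000055332, chromosome 2, 37099210 to 37157065, minus strand), the double-stranded RNA-dependent kinase, was 48.8, 50.8, 60.0 and 40.3 CPM in the parental and 42.3, 33.1, 33.1 and 44.7 CPM in the Axin1 + libraries. The groups overlapped through parental replicate 4, and the log2 fold change was -0.38 (SE 0.16, 95% interval -0.73 to -0.03, edgeR adjusted p = 0.118). Of the 8 tested genes, the values of 3 lay apart upwards and of 1 downwards, where 12.7% and 11.2% of all genes tested did so. The 3 include OAS2, which passed the filter only through the Axin1 + libraries, so these counts are a description and not a rate. The permutation tests were run for all 9 genes and are not adjusted.

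**Figure D2:**
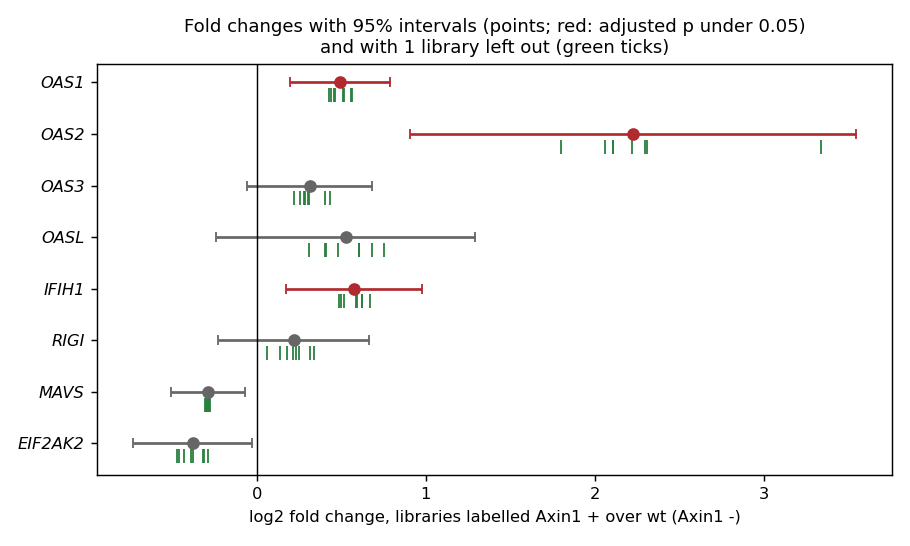
Log2 fold change, Axin1 + over parental (x axis), of the 8 tested genes, with 95% intervals and red for an edgeR adjusted p under 0.05; green ticks below each point give the 8 values with 1 library left out. The called OAS1, OAS2 and IFIH1 and the uncalled OAS3, OASL and RIGI lie right of 0 in every tick, and MAVS and EIF2AK2 left of it. The ticks of OAS2 spread widest, from 1.80 to 3.34.

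Levels were compared between genes per kilobase of exon. In the parental libraries MAVS led with 15.8 CPM per kilobase ± 0.418, followed by OAS1 with 9.27 ± 1.23, EIF2AK2 with 4.65 ± 0.751, OAS3 with 3.01 ± 0.389 and RIGI with 2.57 ± 0.410 (SD, n = 4 each). IFIH1 (1.53 ± 0.278), OASL (0.514 ± 0.232), DHX58 (0.0835 ± 0.0681) and OAS2 (0.0385 ± 0.0414) came last, on the same scale. The ranges of neighbours in this order did not overlap, except those of OAS3 with RIGI and of DHX58 with OAS2. In the Axin1 + libraries OAS1 (13.1 CPM per kilobase ± 1.43) and MAVS (12.9 ± 0.154) overlapped at the top, OAS3, EIF2AK2, RIGI and IFIH1 overlapped from one to the next, and OAS2 (0.189 ± 0.0418) stood above DHX58 (0.110 ± 0.0486). The line therefore held OAS1 well above OAS2 in both groups. With the longest transcript in place of all exons, OAS1 stood at 19.0 CPM per kilobase in the parental libraries, above MAVS at 15.8, so the order of these 2 depends on the length used.

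**Figure D3:**
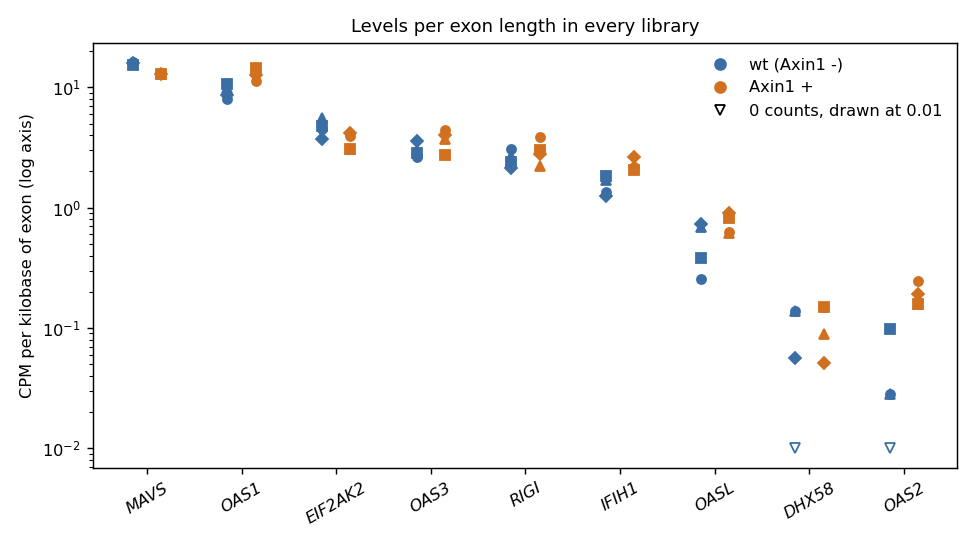
CPM per kilobase of exon (log axis) of the 9 genes in each library, ordered by parental mean, with parental libraries in blue and Axin1 + libraries in orange; open triangles are libraries with 0 counts, drawn at 0.01. The genes span more than 2 orders of magnitude, from MAVS and OAS1 down to DHX58 and OAS2.

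Ratios between some of these genes were also taken within each library. The log2 ratio of OAS1 to EIF2AK2 per kilobase was 0.81 to 1.20 in the parental and 1.52 to 2.23 in the Axin1 + libraries. The log2 ratio of OAS1 to MAVS was -1.03 to -0.51 and -0.22 to 0.18 in the same order. Neither ratio overlapped between the groups. For OAS1 and MAVS this was fixed in advance, since OAS1 itself lay apart upwards and MAVS downwards. The ratio of OAS1 to EIF2AK2 is no separate result either. It draws on OAS1 lying apart and on the negative log2 fold change of EIF2AK2. The log2 ratio of OAS1 to its neighbour OAS3 did overlap, at 1.28 to 1.90 and 1.35 to 2.40, as did that of IFIH1 to RIGI, at -1.20 to -0.38 and -0.82 to 0.01. No test was made of these ratios.

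The proteins that act beside the sensors were described through lists drawn up with earlier results of these data known, and a list was counted, not tested. Of 19 regulators of double-stranded RNA and 2-5A, 15 were tested and 0 were called in the edgeR test, with a median log2 fold change of 0.06. The enzyme that edits double-stranded RNA, ADAR, was 190 CPM ± 13.9 and 219 CPM ± 30.2 (SD, n = 4 each; log2 fold change 0.20, SE 0.13). In the same list 1 gene, PDE12, had an unadjusted p under 0.05, and DESeq2 and limma-voom each called 1 gene. ZBP1, another sensor of such RNA, had no count in any library.

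Of 24 genes between the receptors and interferon, 22 were tested and 1 was called, and their median log2 fold change was -0.07. PCBP2, whose protein promotes the degradation of MAVS, was lower, at 237 CPM ± 23.5 against 335 CPM ± 22.2 in the parental libraries (SD, n = 4 each; log2 fold change -0.50, SE 0.12, edgeR adjusted p = 0.0170). Its call was lost without parental replicate 2 or Axin1 + replicate 3 or 4 (adjusted p at most 0.0619). Exons of other genes overlap 32.7% of its exon length. The kinase gene TBK1 (46.8 CPM ± 3.96 and 47.1 CPM ± 4.83) and the factor gene IRF3 (108 CPM ± 13.7 and 115 CPM ± 11.8) were not called, with log2 fold changes of 0.01 and 0.08 (SD, n = 4 each). IRF7, which amplifies the response, is listed at 0 in every library. The list of the integrated stress response, which PKR feeds, also holds the genes of other eIF2-alpha kinases. Its 14 genes were all tested and 1 was called, with a median log2 fold change of -0.08. TRIB3, a pseudokinase gene induced by ATF4, was lower, at 107 CPM ± 13.5 against 139 CPM ± 3.33 (SD, n = 4 each; log2 fold change -0.37, SE 0.12, edgeR adjusted p = 0.0485). That call was lost in 11 of 18 alternative analyses, among them all that left out 1 library except parental replicate 1 (adjusted p at most 0.167).

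Interferon mRNA itself was close to undetected. Of 9 ligand genes, 8 had no count in any library and IFNL2 had 1 count in Axin1 + replicate 3, so that each library allows up to between 0.108 and 0.267 CPM of any of the 8, for counting error only. Of 17 receptor and JAK-STAT genes, 16 were tested, 5 were called higher and 1 lower, beside 10.4% and 8.77% of all genes tested, and the list had its median log2 fold change at 0.44. IFNGR1, a chain of the interferon-gamma receptor, rose to 104 CPM ± 13.3 from 53.5 CPM ± 8.17 in the parental libraries (SD, n = 4 each; log2 fold change 0.96, SE 0.14, edgeR adjusted p = 0.00149), and the lower gene was IFNGR2, the other chain of that receptor (-0.40, edgeR adjusted p = 0.0284), whose call was lost in 10 of 18 alternative analyses and kept with parental replicate 1 or Axin1 + replicate 1 left out. The kinase gene TYK2 rose to 82.3 CPM ± 4.93 from 53.1 CPM ± 4.93, and IFNAR1, a chain of the receptor for interferon alpha and beta, to 107 CPM ± 20.9 from 66.3 CPM ± 6.59 (SD, n = 4 each; edgeR adjusted p = 0.00419 and 0.0107). Of genes for ISGF3 subunits, STAT2 was among the higher genes (log2 fold change 0.51, edgeR adjusted p = 0.0384, lost with any 1 library left out except parental replicate 1), and IRF9, whose exons share 48.4% of their length with another gene on the same strand, was not called (-0.02, adjusted p = 0.974).

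Among 33 other interferon-stimulated genes, 23 were tested and 8 were called, each of them higher, beside 10.4% higher over all genes tested, and the median log2 fold change was 0.32. IFI35 rose to 78.8 CPM ± 6.65 from 45.2 CPM ± 4.30, SAMD9 to 8.13 CPM ± 2.52 from 2.29 CPM ± 0.560 and IFI27 to 1.72 CPM ± 0.241 from 0.278 CPM ± 0.189 (SD, n = 4 each; edgeR adjusted p from 0.00143 to 0.0022). IFI27 passed the expression filter only through the Axin1 + libraries, so it had to differ among the genes kept, and without that filter its adjusted p was 0.000139 (edgeR). Not all genes of the list were called: ISG15, the ubiquitin-like modifier, had a log2 fold change of -0.22 (SE 0.36; 0.30 without parental replicate 1), and IFIT1, whose protein binds foreign RNA, of -0.08 (SE 0.47; 0.02 with scaling by total counts only), and IFI44L had no count in any library. Of 10 genes listed with the sensors of other nucleic acids, 3 were tested and 2 were called higher, a number too small to set beside the share over all genes. These 2 encode an adaptor and an enzyme. DDX41, the sensor gene tested, was not called (log2 fold change -0.05, edgeR adjusted p = 0.830). STING1, the adaptor of DNA sensing, rose to 1.42 CPM ± 0.128 from 0.404 CPM ± 0.226 and SAMHD1, which degrades deoxynucleotides, to 35.9 CPM ± 5.70 from 24.8 CPM ± 3.29 (SD, n = 4 each; edgeR adjusted p = 0.0137 and 0.0372). STING1 also passed the filter only through the Axin1 + libraries, and its adjusted p without a filter was 0.00851 (edgeR). The call of SAMHD1 was kept only without parental replicate 4 or Axin1 + replicate 1 among the analyses that left out 1 library. TREX1 is listed at 0 in every library, and in the annotation 100% of its exon length is shared with ATRIP on the same strand.

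**Figure D4:**
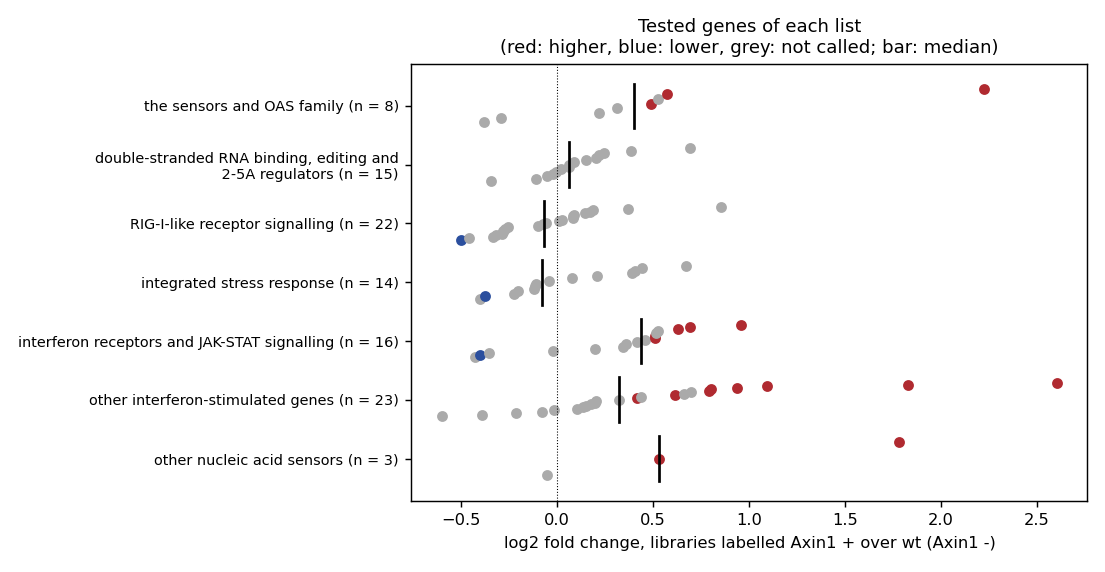
Log2 fold change, Axin1 + over parental (x axis), of every tested gene of each list (rows, n tested in brackets), with red for higher, blue for lower and grey for not called at an edgeR adjusted p under 0.05, and a black bar at the list's median. Medians lie between 0.32 and 0.53 for the sensors, the receptor and JAK-STAT genes, the other interferon-stimulated genes and the genes listed with other nucleic acid sensors, and between -0.08 and 0.06 for the other 3 lists.

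To show the surroundings of each gene on its chromosome, it was set beside the 20 tested genes on either side of it. The genes around the OAS1, OAS3 and OAS2 cluster had a median log2 fold change of 0.01, with PTPN11 (0.11) and DTX1 (-4.32, edgeR adjusted p = 0.00432; -6.43 to -3.98 with 1 library left out) as the nearest on each side. Around IFIH1 the median was -0.19, with DPP4 (-1.38, edgeR adjusted p = 0.0217, not called without parental replicate 2 or 3 or Axin1 + replicate 3 or 4) and GCA (0.44) nearest, and around OASL it was -0.17, with P2RX4 (-0.02) nearest on one side. OAS1, OAS2 and IFIH1 exceeded the median of their neighbours by 0.48, 2.21 and 0.77 on the log2 scale. They were called higher, so a place above neighbours with a median near or below 0 follows from that choice. The uncalled OASL, OAS3 and RIGI also exceeded theirs, by 0.69, 0.30 and 0.14.

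MAVS, at -0.29, stood within 0.02 of the median of its neighbours, which was -0.31 with 9 of 40 genes lower and 1 higher, and its nearest neighbours were AP5S1 (0.15) and PANK2-AS1 (-0.04). EIF2AK2, at -0.38, had neighbours with a median of -0.22, among them GPATCH11 (-0.23), whose exons overlap it by 35 bases on the opposite strand, and CEBPZOS (0.03). Around RIGI the median was 0.08, with ACO1 (-0.08) and TOPORS (0.22) nearest. The untested DHX58 sits between C17orf113 (0.53) and KAT2A (0.55), in a stretch whose 40 tested genes had a median of 0.40, with 14 higher and 1 lower. These medians depend on the window. With the nearest 3 tested genes on each side they were -0.325 around the OAS1, OAS3 and OAS2 cluster, -0.42 around IFIH1 and -0.18 around OASL. In the same window they were -0.10 around MAVS, which lay 0.19 below it, -0.16 around EIF2AK2, and 0.51 around RIGI and around DHX58. RIGI thus lay 0.29 below its neighbours' median here, and above it with 20 genes on each side. Whether these stretches take part in the values of the genes within them was not tested.

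**Figure D5:**
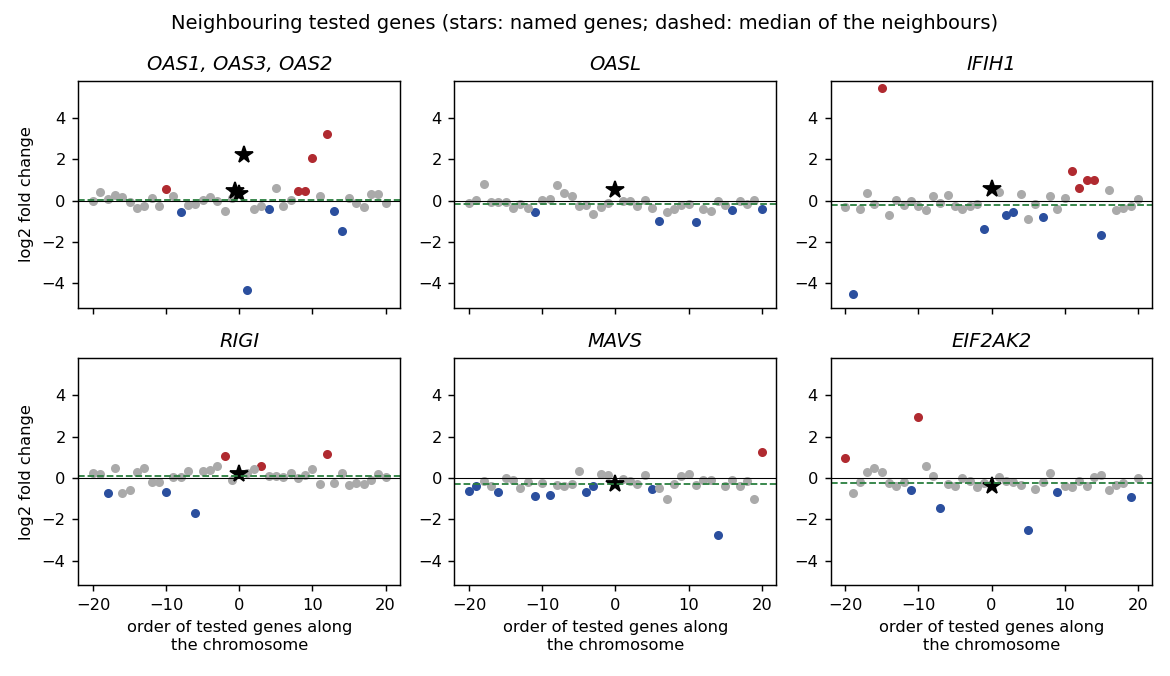
Log2 fold change, Axin1 + over parental (y axis), of the 20 tested genes on each side of the named genes, in chromosome order (x axis), with red for higher, blue for lower and grey for not called; stars are the named genes and the dashed line is the neighbours' median. The stars of OAS1, OAS3, OAS2, OASL, IFIH1 and RIGI lie above the dashed line, that of EIF2AK2 lies below it, and that of MAVS lies on it.

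The genes with the most similar pattern over the 8 libraries, by Pearson's r of log2 CPM among tested genes with a mean of at least 1 CPM, are given as a description, since the libraries fall into 2 groups. For OAS1 they were ENSG00000270175 (0.99), PNPLA3 (0.99) and MYL12A (0.98), for OAS2 GLIPR2, CEACAM1 and ANXA13 (0.96 each), and for IFIH1 CDKN2AIP (0.98), OGFRL1 (0.98) and SERINC3 (0.97). All 9 had a positive log2 fold change, which largely follows from their likeness to genes called higher. None of them was another sensor or OAS gene, but OAS2 and DHX58 were under the required mean and could not appear.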

How the data were processed

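Messenger RNA libraries of 8 samples were sequenced. The authors deposited raw counts per gene, 1 column per sample, without normalization, as the whole numbers and differing totals show. GRCh38, bcl2fastq, fastp 0.23.1 and STAR 2.7.4 are named in the submitters' processing notes. The counting program, its annotation and its strand setting are not given in the sources used here. Each column carries the name of 1 sample, and 0 columns were without one.

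Symbols and positions came from a table of gene names and GENCODE release 29 (57495 and 57943 of 58206 identifiers matched). The deposited counts were tested with edgeR 4.0.16 (R 4.3.3): filterByExpr (minimum count 10, minimum total 15), TMM factors, glmQLFit and glmQLFTest without covariates, and two-sided Benjamini-Hochberg adjusted p-values over all 14289 genes tested, threshold 0.05. SE was derived from the log2 fold change and the F statistic. Log2 CPM used a prior count of 2. The permutation tests enumerated all 70 labelings. The fits were tested on simulated data. Alternatives were other scalings (DESeq2 size factors, upper quartile, total counts only), other filters (none, a mean of 1 CPM), DESeq2 1.42.0, limma-voom (limma 3.58.1), a replicate block, thinned counts, a threshold of 0.01 and leaving out each library.

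Genes named are the 9, AXIN1, up to 3 called genes of each list by smallest p, nearest tested neighbours and the 3 most similar genes. ADAR, PDE12, ZBP1, TBK1, IRF3, IRF7, IFNL2, IFNGR2, STAT2, IRF9, ISG15, IFIT1, IFI44L, TREX1, DDX41, PTPRC, CD3E, LYZ, ALB, VWF, CDH5, NLRP1 and SAMD9L were added after their values were seen. The 9 genes and all lists were chosen with earlier results of these data known. A planned comparison of the proteins was not made, and some genes the rule would name are not reported here.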

Additional observations from a re-analysis of the deposited data

Results flagged for a closer look

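Among 50 groups of 4 libraries examined, for the genes named by rule, 3 held a library set far apart from the other 3, by Dixon's criterion, and chance alone flags about 1 in 20. MAVS in Axin1 + replicate 1 was 154 CPM, against 151 CPM in each of the other Axin1 + libraries. This library was still below all parental ones. AXIN1 in Axin1 + replicate 4 was 37.7 CPM, against 47.6 to 48.2 CPM in the other 3. TRIB3 in parental replicate 2 was 144 CPM, against 137 CPM in the others.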

How the results depend on the processing

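None of the 8 tested genes of the 9 changed sign in any alternative that gave a value, the fits that left out 1 library included. OAS3, OASL, RIGI and EIF2AK2 stayed uncalled in all 18 alternatives, and MAVS passed only in DESeq2's Wald test (log2 fold change -0.30, adjusted p = 0.00239). The count of the 9 genes called higher, 3, was 1 with the replicate number as a block, 1 with counts thinned to the smallest total, 0 at an adjusted p under 0.01 and between 0 and 2 with 1 library left out. The count called lower was 1 with DESeq2 and 0 otherwise. OAS2 was 2.38 with the replicate block and was filtered out after thinning and at a mean of at least 1 CPM. IFIH1 lost its call with DESeq2 size factors (0.57), without an expression filter (0.60), with the replicate block (0.58), after thinning (0.44, adjusted p = 0.213) and without replicate 1 of both groups (0.54, chosen after seeing the data). With 1 library left out, log2 fold changes ranged from 0.42 to 0.57 for OAS1, from 1.80 to 3.34 for OAS2 and from 0.49 to 0.67 for IFIH1. The number of genes called was 964 at an adjusted p under 0.01, 4623 without replicate 1 of both groups and 1394 to 3523 with 1 library left out. The causes were not tested.

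Directions reversed for 9 genes near 0 that were not called. With 1 library, or replicate 1 of both groups, left out, log2 fold changes ran from -0.418 to 0.297 for ISG15, -0.463 to 0.169 for IFIT1, -0.05 to 0.06 for TBK1, -0.261 to 0.273 for IRF9, -0.066 to 0.206 for PTPN11, -0.099 to 0.096 for P2RX4, -0.267 to 0.348 for PANK2-AS1, -0.092 to 0.134 for CEBPZOS and -0.27 to 0.013 for ACO1. Total counts only gave 0.019 for IFIT1, 0.066 for P2RX4, 0.041 for IRF9 and 0.044 for PANK2-AS1, limma-voom 0.079 for IRF9 and 0.089 for PANK2-AS1, the replicate block 0.060 and 0.043 for the same pair, no expression filter 0.009 for P2RX4, and DESeq2 size factors 0 for TBK1.

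Over all alternatives the counts called higher ranged from 0 to 3 for regulators of double-stranded RNA, 0 to 1 for receptor signalling (0 to 4 lower), 2 to 6 for receptor and JAK-STAT genes (0 to 3 lower), 5 to 9 for other interferon-stimulated genes (0 to 2 lower) and 0 to 2 for genes listed with other nucleic acid sensors, and 0 to 2 stress response genes were lower. The replicate numbers did not pair the samples: correlations of same-numbered deviations were -0.06, 0.01, -0.03 and 0.23, with replicate 4 alone closest to its own number, and the block gave 2033 calls against 2738. Depth limited DHX58 and OAS2, whose parental libraries held at most 6 and 9 counts.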

Other observations

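Some genes of the antiviral lists were under the expression filter and had their counts almost only in the libraries labelled Axin1 +. They were picked after their values were seen. NLRP1, an inflammasome sensor that double-stranded RNA can activate, had 0 counts in every parental library and 8, 3, 2 and 9 counts in Axin1 + replicates 1 to 4. SAMD9L, an interferon-stimulated relative of SAMD9, had 1, 0, 0 and 0 counts in the parental and 8, 5, 6 and 19 in the Axin1 + libraries. Without an expression filter the edgeR adjusted p was 0.0111 for NLRP1 and 0.00407 for SAMD9L.

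Markers of cell types differed between the groups as well. GPC3, a proteoglycan gene common in liver cancer, was 513 CPM ± 69.1 in the parental and 118 CPM ± 17.4 in the Axin1 + libraries, and TTR, encoding transthyretin, was 3.63 CPM ± 1.90 and 12.6 CPM ± 6.86 (SD, n = 4 each). PECAM1, an endothelial adhesion gene, was 5.18 CPM ± 0.951 and 48.2 CPM ± 10.3, while PDGFRB, of fibroblasts and pericytes, was 1.69 CPM ± 0.639 and 0.221 CPM ± 0.162 (SD, n = 4 each). PDGFRB passed the expression filter only through the parental libraries (edgeR adjusted p = 7.8e-05 without the filter). The edgeR adjusted p of these 4 genes were at most 0.0259, and TTR lost its call without parental replicate 3 or Axin1 + replicate 2, 3 or 4 (at most 0.0662). The endothelial genes VWF and CDH5 had at most 6 and 4 counts in any library. The part of these differences in the values of the sensors was not tested.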
